A study of Mus musculus with 4 samples.

Results

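Pik3cd and Zfand1 are 2 mouse genes with several alternative transcripts. Their reads were spread differently over these transcripts in 2 libraries of WD-fed Tas1r3-/- mice and 2 libraries of WD-fed WT mice. Every RefSeq transcript row of both genes was taken without summing, which gave 10 of the 30930 transcripts in the table, 6 of Pik3cd and 4 of Zfand1. Both genes were chosen by the difference in the estimated counts of 1 transcript each between the groups, seen in these same libraries, so their shares and fold changes are given as a description. Calls that fits over the whole table made for them are named, and nothing is read from these.

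The study asked how loss of the taste receptor subunit TAS1R3 changes gene expression in the hypothalamus of mice on a Western diet (WD). All 4 libraries are labelled as hypothalamus, of male C57BL/6 mice that received WD, a 60% fat diet with a 30% sucrose solution, for 12 weeks from 8 weeks of age. The groups were WT (2 libraries, named WT WD) and littermates from a conventional Tas1r3 knockout line (2 libraries, Tas1r3-/- WD, also called the knockout libraries). The line was backcrossed to C57BL/6. The study describes more mice in each group of its sequencing than there are libraries here, and the labels do not say whether each library came from 1 mouse or a pool, so n counts libraries and the spread between libraries may be partly technical. Totals per library were between 5874782 and 6273772 estimated counts.

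A gene can give rise to several transcripts that differ in their first exon, their splicing or their end. Short reads that fall in shared exons fit several of them, and the counter divides such reads by estimation, so a transcript value is an estimated count and need not be whole. Pik3cd encodes p110delta, a catalytic subunit of class I PI3K that is enriched in leukocytes and makes the lipid messenger PIP3 downstream of receptors. Zfand1 encodes an AN1-type zinc finger protein that brings the ATPase p97 and the 26S proteasome to stress granules, the RNA and protein assemblies that form in stressed cells. In brain, microglia are known to express p110delta.

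Pik3cd lies at chr4:149732411-149787028 on the minus strand of GRCm39, where GENCODE M39 lists 36 transcripts, 31 of them protein coding. It is 6.16 Mb from Tas1r3, the targeted gene, at chr4:155943725-155947819. Its 3′ end overlaps the 3′ end of Clstn1, on the other strand, by 1244 bases, and the use of strand in counting is not given in the sources used here, so reads from that stretch cannot be assigned with certainty. Zfand1 lies at chr3:10404790-10416433, on the minus strand, and has 63 GENCODE transcripts, 47 of them annotated as targets of nonsense-mediated decay. The annotated genes Gm56818 and Gm66307 overlap Zfand1, so reads from the shared stretches cannot be assigned with certainty either. A RefSeq promoter table (GRCm38.p6) holds 3 start sites for Pik3cd and names none for Zfand1. Because each start site begins a different set of transcripts, the 120 bases before each of the 3 starts are shown, 5′ to 3′ on the gene's strand, with CpG dinucleotides in capitals. Each matched GRCm39 at 1 place only, all on the minus strand, at chr4:149783166-149783285, chr4:149760547-149760666 and chr4:149747774-149747893.
Pik3cd start 1: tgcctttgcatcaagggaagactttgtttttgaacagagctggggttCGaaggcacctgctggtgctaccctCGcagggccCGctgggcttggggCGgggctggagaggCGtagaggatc
Pik3cd start 2: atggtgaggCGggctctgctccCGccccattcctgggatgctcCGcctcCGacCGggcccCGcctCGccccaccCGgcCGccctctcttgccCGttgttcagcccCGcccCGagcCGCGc
Pik3cd start 3: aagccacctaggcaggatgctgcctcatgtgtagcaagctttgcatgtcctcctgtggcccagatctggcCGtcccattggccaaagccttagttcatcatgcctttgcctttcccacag

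The second start is 22.6 kb and the third 35.4 kb downstream of the first. Over the 300 bases around each start, the second had 26 CpG and 68% GC. The first had 6 CpG with 51% GC and the third 4 CpG with 54% GC, against a median of 7 CpG and 52.7% GC over 32851 promoters. GENCODE transcripts that begin within 100 bases numbered 4 at the first start, 17 at the second and 1 at the third. The letters TGACG, the half-site bound by CREB, were searched on both strands and were found in none of the 3 windows of 300 bases, while 20.8% of all promoters held them. Which RefSeq transcript uses which start was not analysed here.

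Before any comparison, 2 libraries stood apart in their tissue markers. The hypothalamus list holds 11 neuropeptide and transcription factor genes, and its summed level, in CPM, reads scaled to library size and by TMM, was 1735 and 34.3 CPM in WT WD replicates 1 and 2 and 1267 and 1216 CPM in Tas1r3-/- WD replicates 1 and 2. Its most abundant gene, Pmch, which encodes the melanin-concentrating hormone precursor, was at 767, 6.65, 373 and 557 CPM in the same order. WT WD replicate 2 therefore held nearly none of the defining hypothalamic transcripts, and goes against its tissue label. In the same library, 8 thalamus genes summed to 2035 CPM, against 101 CPM in WT WD replicate 1 and 149 and 302 CPM in the knockout libraries. The 6 choroid plexus genes summed to 753 CPM there and to 58.7, 51.5 and 39.9 CPM in the others. Most of that sum was Ttr, a thyroxine carrier, at 677 CPM there and at 4.29, 3.05 and 0.700 CPM in the others. Of the 6 genes, 4 were highest in WT WD replicate 2. Tas1r3-/- WD replicate 1 stood apart by pituitary genes, which summed to 1429 CPM against at most 14.6 CPM in the other libraries, with Gh, growth hormone, the most abundant. The part of these differences in the transcript shares was not tested, and the differences of the 2 gene totals and of the transcripts that did not overlap between the groups are also given without WT WD replicate 2, while those of other genes are over all 4 libraries. In such bulk tissue, fewer cells of a type and less RNA per cell cannot be told apart.

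**Figure D1:**
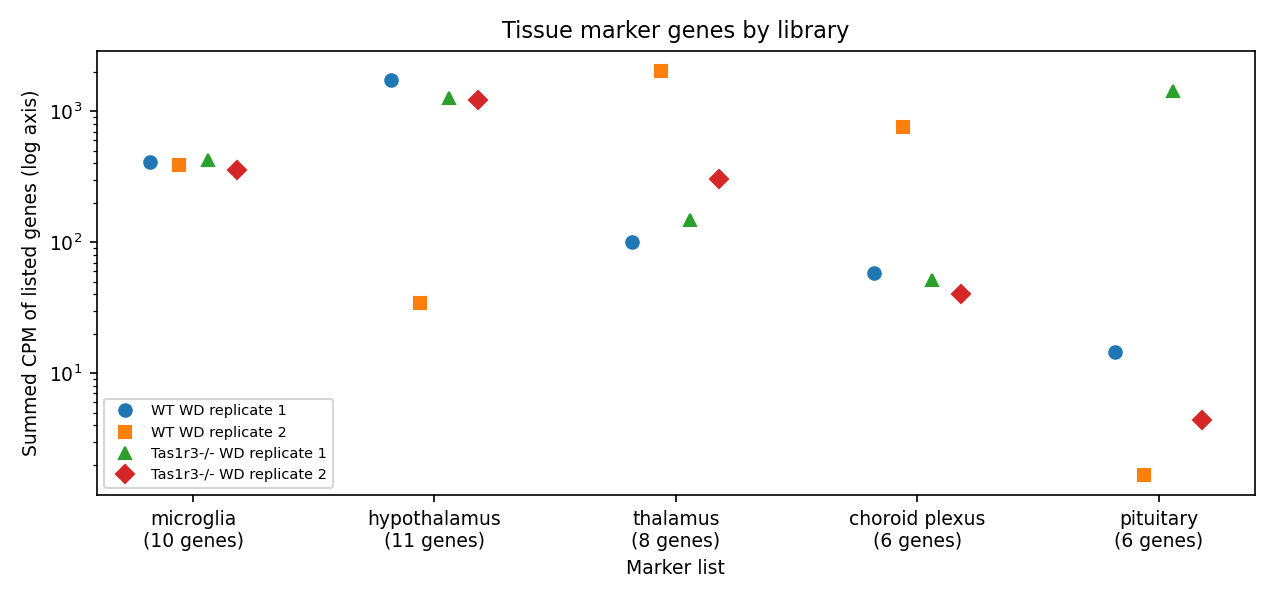
Summed CPM (log axis) of the genes of 5 marker lists (x axis), 1 point for each of the 4 libraries. WT WD replicate 2 has the lowest hypothalamus sum (34.3) and the highest thalamus (2035) and choroid plexus (753) sums, and Tas1r3-/- WD replicate 1 has the highest pituitary sum (1429).

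Markers of microglia, which are known to express p110delta, were present in every library. The 10 microglial genes summed to 414 and 387 CPM in the WT libraries and to 428 and 359.5 CPM in the knockout libraries, so the groups overlapped. Csf1r, the receptor for colony stimulating factor 1, was the most abundant of them, at 93.6, 78.5, 87.3 and 77.6 CPM. Of 10 genes of other leukocytes only 3 were listed in the table, among which S100a9, a neutrophil calcium-binding protein, was the most abundant at 0.321 to 1.71 CPM. Tas1r3 itself, the gene targeted in the knockout, was at 35.3 and 27.0 estimated counts in the WT libraries and at 7.0 in each of the knockout libraries. Some reads were thus still assigned to it in the knockout libraries. Both knockout libraries were below both WT libraries, with a log2 fold change of -2.13 (SE 0.42, adjusted p = 0.757 by edgeR).

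The total of Pik3cd was 119 and 324 estimated counts in the WT libraries and 186 and 152 in the knockout libraries, or 20.5, 53.3, 29.8 and 26.6 CPM. WT WD replicate 2 was the highest and WT WD replicate 1 the lowest, so the groups overlapped. The log2 fold change of the total, Tas1r3-/- WD against WT WD, was -0.39 (SE 0.46) by edgeR. Leaving out WT WD replicate 2 gave 0.47 and leaving out WT WD replicate 1 gave -0.91, so its sign depends on which WT library is used. In the latter fit the only WT library was replicate 2, which held nearly none of the hypothalamic marker transcripts. Without WT WD replicate 1, edgeR called 2123 of 14841 genes (14.3%), the Pik3cd total among them, and it called neither member total in the fit of all libraries or with any other library left out.

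NM_001164052 led Pik3cd in both WT libraries. It held 88.8 and 131 estimated counts in the WT libraries and 11.6 and 8.30 in the knockout libraries. Its share of the gene was 74.3% (95% Wilson interval 66.3 to 81.7) and 40.5% (35.2 to 45.9) in WT WD, and 6.25% (3.73 to 10.9) and 5.46% (2.69 to 10.0) in the knockout libraries. The lower WT share was that of replicate 2, and both knockout shares were below both WT shares. These intervals cover counting error only, since the assignment of reads to transcripts is itself an estimate. The mean share was 57.4% ± 23.9 (SD, n = 2) in the WT libraries and 5.86% ± 0.562 (SD, n = 2) in the knockout libraries, a difference of -51.5 percentage points. Leaving out WT WD replicate 2 gave -68.4 points and leaving out WT WD replicate 1 gave -34.6 points. The level of this transcript was 15.3 and 21.6 CPM in the WT libraries and 1.86 and 1.45 CPM in the knockout libraries, with a log2 fold change of -3.46 (SE 0.46), which was -3.19 without WT WD replicate 2 and lay between -3.70 and -3.19 with each library left out.

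The other 5 transcripts of Pik3cd held the rest of the gene in different ways in the 2 knockout libraries. Without NM_001164052 the gene held 30.7 and 193 estimated counts in the WT libraries and 174 and 144 in the knockout libraries. The knockout libraries lay inside the range of the WT libraries in this remainder. NM_001164051 was at 122 estimated counts and 65.8% in Tas1r3-/- WD replicate 1 but at 12.2 and 8.02% in replicate 2. In WT WD it was at 19.1 and 86.4 estimated counts, or 16.0% and 26.6%. This transcript therefore led one knockout library, while its groups overlapped. NM_001029837 led the other knockout library, at 71.8 estimated counts and 47.3%, with 15.5 and 8.33% in the first and 3.19 and 52.4, or 2.67% and 16.2%, in WT WD.

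NM_001164049 followed NM_001029837 in a fixed proportion. The ratio of their estimated counts was 1.31 in each of the 4 libraries and varied by 0.00144% of its value, so the reads did not tell this pair apart and its 2 values carry no separate information. Their summed share was 4.70% and 28.5% in the WT libraries and 14.7% and 83.3% in the knockout libraries, with overlap between the groups. Such fixed pairs, with a tolerance of 0.1% and at least 1 count in each library, made up 544 of 29969 pairs of transcripts of the same gene (1.82%) and were present in 392 of 5761 genes (6.80%). NM_001164050 stayed small, at 5.07 and 9.41 estimated counts in the WT libraries and 4.51 and 4.08 in the knockout libraries. Its share was 4.24% and 2.90% in the WT libraries against 2.43% and 2.69%, lower without overlap with a difference of -1.02 points, on counts near the floor of 3 per library. Its difference was -0.346 points without WT WD replicate 1 and -1.68 points once WT WD replicate 2 was left out. NM_008840 was at 0.939, 4.84, 20.2 and 0.757 estimated counts, with 10.8% in Tas1r3-/- WD replicate 1 and at most 1.49% in the others.

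**Figure D2:**
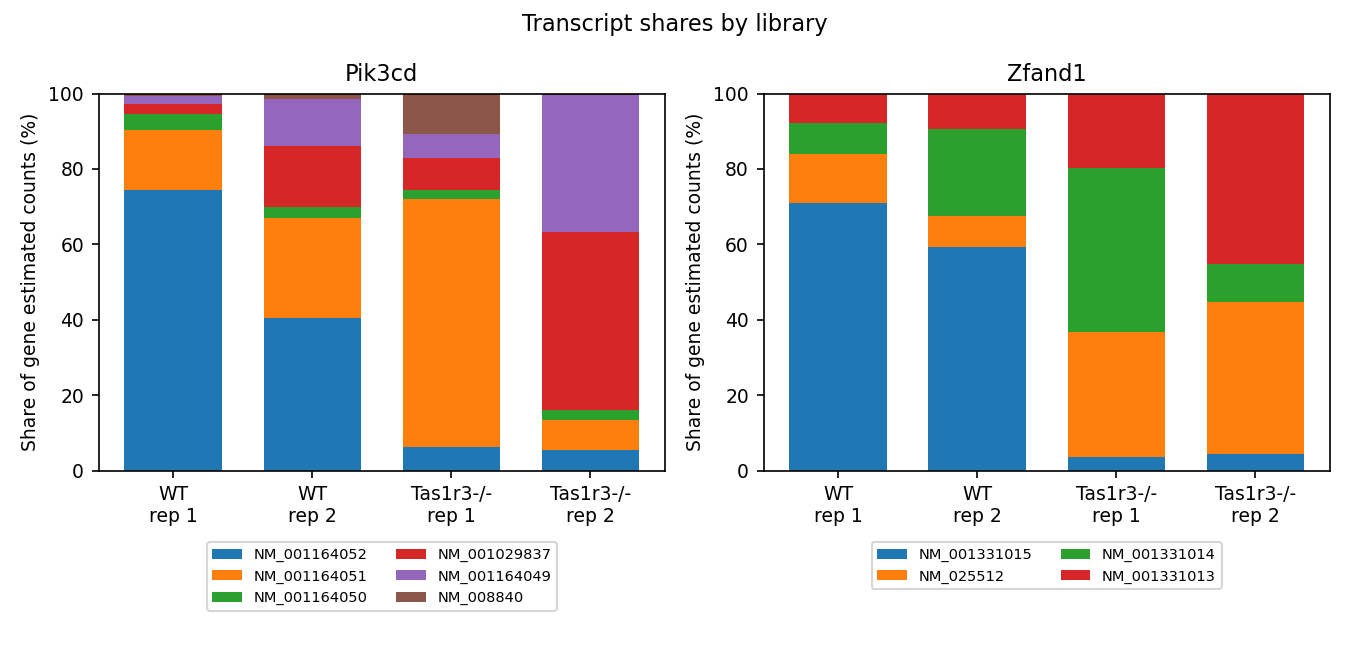
Share of each gene's estimated counts (y axis, %) held by each RefSeq transcript, stacked, in the 4 libraries (x axis), for Pik3cd (left) and Zfand1 (right). NM_001164052 (74.3% and 40.5% in WT WD) and NM_001331015 (71.1% and 59.2%) are the largest segments of the WT bars and at most 6.25% and 4.55% of the knockout bars.

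The total of Zfand1 was 99.0 and 136 estimated counts in the WT libraries and 107 and 90.0 in the knockout libraries, or 16.97, 22.4, 17.2 and 15.7 CPM. The groups overlapped, since the first knockout library lay between the WT libraries. The log2 fold change of the total was -0.26 (SE 0.21) and lay between -0.44 and -0.04 when single libraries were dropped. It was nearest 0, at -0.04, without WT WD replicate 2.

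NM_001331015 was the leading transcript of Zfand1 in both WT libraries. It held 70.4 and 80.5 estimated counts in the WT libraries and 4.01 and 4.09 in the knockout libraries. Its share was 71.1% (95% Wilson interval 61.1 to 78.8) and 59.2% (51.2 to 67.4) in the WT libraries against 3.75% (1.46 to 9.22) and 4.55% (1.74 to 10.9) in the knockout libraries. The knockout counts were close to the floor of 3 per library, and the WT shares differed by 11.9 points. The mean share was 65.1% ± 8.39 (SD, n = 2) in the WT libraries and 4.15% ± 0.565 (SD, n = 2) in the knockout libraries, a difference of -61.0 points. It became -66.9 points when WT WD replicate 2 was dropped and -55.1 points when WT WD replicate 1 was. In CPM it was 12.1 and 13.2 in the WT libraries and 0.640 and 0.716 in the knockout libraries, with a log2 fold change of -4.21 (SE 0.53), which was -4.13 without WT WD replicate 2 and lay between -4.27 and -4.13 with each library left out.

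The other 3 transcripts of Zfand1 summed to 28.6 and 55.5 estimated counts in the WT libraries and to 103 and 85.9 in the knockout libraries, higher in both knockout libraries. Shares within a gene add up to the whole, so the summed share of these 3 had to rise where that of NM_001331015 fell. NM_025512 was at 12.8 and 11.5 estimated counts, or 12.96% and 8.44%, in the WT libraries and at 35.4 and 36.1, or 33.1% and 40.1%, in the knockout libraries. Its mean share was 25.9 points higher with no overlap, or 23.6 points higher without WT WD replicate 2, and both knockout libraries were close to each other. NM_001331013 was at 7.72 and 12.97 estimated counts, or 7.79% and 9.53%, in the WT libraries and at 21.2 and 40.8, or 19.8% and 45.3%, in the knockout libraries, a difference of 23.9 points with no overlap. That difference was 24.8 points without WT WD replicate 2, but 11.1 points without Tas1r3-/- WD replicate 2 and 36.6 points with replicate 1 of that group left out instead. NM_001331014 did not separate the groups, at 8.10, 31.0, 46.4 and 9.03 estimated counts, and led Tas1r3-/- WD replicate 1 with 43.4%. NM_001331013 led the other knockout library, so as in Pik3cd the knockout libraries differed in their leading transcript.

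**Figure D3:**
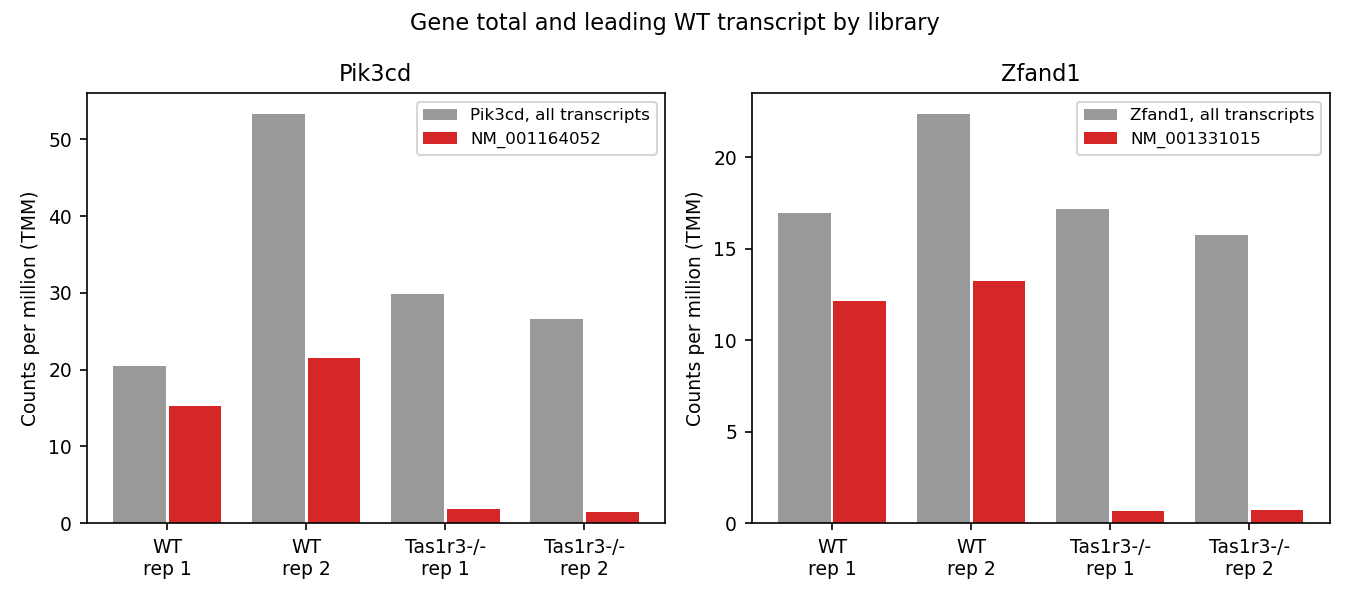
Level in TMM-scaled CPM (y axis) of each gene total (grey) and of its leading WT transcript (red) in the 4 libraries (x axis). The red bars reach at most 1.86 CPM for NM_001164052 and 0.716 CPM for NM_001331015 in the knockout libraries, while the grey bars of both genes overlap between the groups.

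The shares of both genes moved widely between libraries of 1 group too. In Pik3cd the largest difference of a share between the libraries of a group was 33.8 points in the WT libraries and 57.8 in the knockout libraries, and in Zfand1 it was 14.6 and 33.4 points. The difference between groups for NM_001164052 (-51.5 points) was thus smaller in size than the largest gap within the knockout group, which belonged to NM_001164051. The gap of NM_001164052 itself was 33.8 points in the WT libraries and 0.795 in the knockout libraries. For NM_001331015 the difference between groups (-61.0 points) was larger in size than both gaps of Zfand1. Both transcripts were chosen for this contrast, so nothing is read from these comparisons. Over 6013 genes with at least 2 listed transcripts and at least 20 counts in each library, 1790 (29.8%) had a share gap of at least 20 points between the WT libraries and 1692 (28.1%) between the knockout libraries.

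Across the same 6013 genes, 722 (12.0%) had a transcript whose shares did not overlap between the groups and differed by at least 20 points. A difference of at least 40 points was present in 119 genes (1.98%). Both member genes are among them, and, since they were chosen for this contrast, nothing is read from that. By the largest such difference Zfand1 was number 19 and Pik3cd number 44 of 3175 genes with a share that did not overlap. Among genes with a mean total of 50 to 400 counts, the range of both, 566 of 3501 (16.2%) passed 20 points.

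**Figure D4:**
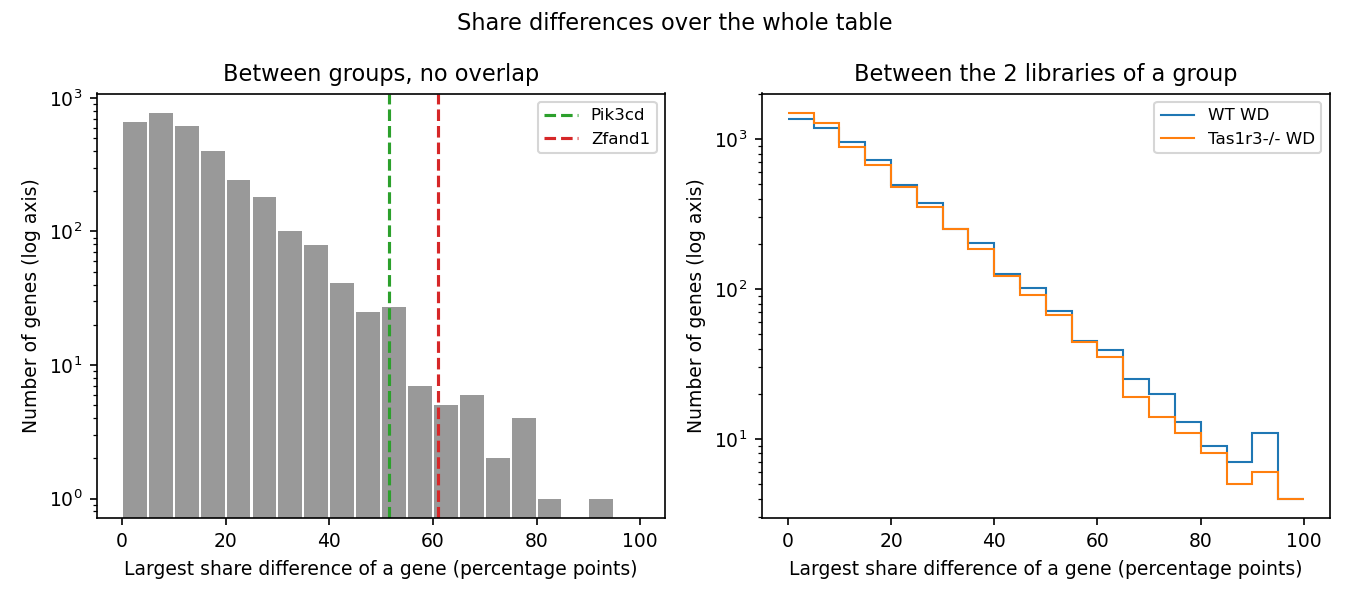
Number of genes (log axis) by the largest share difference of any of their transcripts (x axis, percentage points, bins of 5). The left panel shows differences of group means where the shares did not overlap, with Pik3cd (51.5) and Zfand1 (61.0) as dashed lines, and the right panel shows gaps between the 2 libraries of each group, which reach as far.

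In the fit over all transcripts, edgeR's quasi-likelihood test called 0 of 25699 (0%), with a smallest adjusted p of 0.939 and 1179 at an unadjusted p under 0.05. DESeq2 called 6 of 30891 (0.0194%), and limma-trend called 0. The 6 are NM_001164052 and NM_001331015, the basis of the choice, together with Cptp NM_024472, Eno1b NM_001025388, Fosl2 NM_008037 and Zbtb16 NM_001364543, with DESeq2 log2 fold changes of -3.47, -4.24, 1.88, -1.35, 2.39 and 2.54. The other 4 were named after their values were seen. Of the 10 member transcripts, 8 passed the filter on low values, and NM_001164050 and NM_008840 did not. In level, both knockout libraries were below both WT libraries in 17.8% of all transcripts tested and above in 17.9%, and for the 8 members this was so for 2 and 2. The 2 below are the transcripts behind the choice and passed the filter through the WT libraries only. The 2 above, NM_001331013 and NM_025512, divide the reads of Zfand1 with NM_001331015, so they are not independent of the choice. Nothing is read from either count. Transcript usage within genes, tested with diffSpliceDGE of edgeR, was called in 0 of 5682 genes, with 172 at an unadjusted p under 0.05 and a smallest adjusted p of 0.596.

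The transcripts most like NM_001164052 in their 4 shares, by the Euclidean distance in percentage points over the 4 libraries, were Pars2 NM_001285784 (9.73 points), Rbak NM_001359235 (12.8) and Nfam1 NM_001271413 (13.1), searched over 19687 transcripts. Pars2, a mitochondrial prolyl-tRNA synthetase, had shares of 72.3%, 32.9%, 1.71% and 8.94%. Most like NM_001331015 were Spata7 NM_001289572 (11.0 points), Fancl NM_001277273 (14.3) and Kctd18 NM_001159865 (15.1). Spata7, a ciliary protein of photoreceptors, had shares of 70.6%, 59.0%, 14.6% and 6.25%. Likeness was computed over 4 libraries only and is a description.

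The neighbours in the annotation were read at the level of gene totals and shares. Next to Pik3cd, Ctnnbip1, an inhibitor of beta-catenin, was at 39.96, 95.7, 39.8 and 38.6 CPM in WT WD replicates 1 and 2 and Tas1r3-/- WD replicates 1 and 2. It was highest in WT WD replicate 2, as was the Pik3cd total. Clstn1, a calsyntenin of the synapse, was at 1296, 1829, 1294 and 1395 CPM, with the same library highest. Lzic, Tmem201 and Slc25a33, the other neighbours, had log2 fold changes of 0.10, 0.12 and -0.23, and none was called by edgeR. A share difference of at least 20 points without overlap was present in 0 of the 4 neighbours of Pik3cd and 1 of the 3 neighbours of Zfand1 with enough counts, beside 12.0% of all genes. The 1 is Snx16, a sorting nexin, which had a share difference of 20.3 points for NM_001127191, at 9.73%, 8.09%, 37.2% and 21.3%. The totals of Fabp5, Impa1, Snx16 and Ralyl had log2 fold changes of -0.28, 0.04, -0.05 and -0.08. These genes lie 323, 8.29, 66.2 and 3120 kb from Zfand1, so not all are close to it.

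Among the other 24 genes of the class I PI3K list, edgeR called 0 (0% of all genes tested were called), with 4 (16.7%) at an unadjusted p under 0.05, namely Pik3r1, Irs2, Pdpk1 and Rictor. Over all 14342 other genes tested, 772 (5.38%) were at such a p. The list median log2 fold change was 0.13, against -0.01 over all genes tested. In 10 genes both knockout libraries were above both WT libraries and in 1, Akt2, both were below, or 41.7% and 4.17% of the list, beside 20.6% and 18.9% of all genes. The catalytic subunits Pik3ca, Pik3cb and Pik3cg had log2 fold changes of 0.20, -0.05 and -0.02. Pik3ca, p110alpha, was the only one without overlap, at 56.6 and 67.4 CPM in the WT libraries and 68.7 and 73.4 CPM in the knockout libraries. Of the regulatory subunits, Pik3r1, which encodes p85alpha and its shorter forms, was at 62.5 and 68.4 CPM against 90.6 and 81.5 CPM (log2 fold change 0.39, SE 0.13, adjusted p = 0.757 by edgeR). Pik3r2, Pik3r3, Pik3r5 and Pik3r6 had log2 fold changes of -0.13, 0.15, 0.06 and 0.07 with overlap between groups. Outside the subunits, among genes at a mean of at least 10 CPM, the highest log2 fold changes were those of Irs2, an insulin receptor substrate (0.49), and Inpp5d, the lipid phosphatase SHIP1 (0.40), and the lowest were those of Inpp4b, another lipid phosphatase (-0.96), and the kinase Akt2 (-0.18). Inpp4b was at 17.5, 45.4, 14.3 and 18.0 CPM, so WT WD replicate 2 was the highest and the other 3 libraries were close to each other. Of the 11 list genes with enough counts, 0 had a share difference of at least 20 points without overlap, beside 12.0% of all genes.

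Among the other 31 genes of the AN1, p97, stress granule and 19S proteasome list, edgeR also called 0, with 1 (3.23%), Psmd11, at an unadjusted p under 0.05 beside the 5.38% of all genes, and the median log2 fold change was 0.02. Both knockout libraries were above both WT libraries in 5 (16.1%), namely Zfand2a, Ufd1, Faf2, Tial1 and Psmd11, and below in 7 (22.6%), beside the same 20.6% and 18.9% of all genes. In the Zfand family, the log2 fold changes were 0.10 for Zfand2a, 0.00 for Zfand2b, 0.14 for Zfand3, -0.31 for Zfand4, -0.45 for Zfand5 and -0.46 for Zfand6. Zfand5 was at 91.2, 160.5, 88.7 and 96.0 CPM and Zfand6 at 23.8, 44.7, 24.7 and 25.1 CPM, so WT WD replicate 2 was the highest for both and the other 3 libraries were close to each other. Of the 17 list genes with enough counts, 1 (5.88%) had a share difference of at least 20 points without overlap, beside 12.0% of all genes, and it was Zfand6, for NM_001360580 at 25.2%, 44.2%, 48.3% and 71.9%. Outside the family, the extremes at a mean of at least 10 CPM were Psmd11 (0.39), a lid subunit of the 19S particle, and Ufd1 (0.31), a p97 cofactor, at the top, and Psmd3 (-0.22) and Psmc1 (-0.19) at the bottom.

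**Figure D5:**
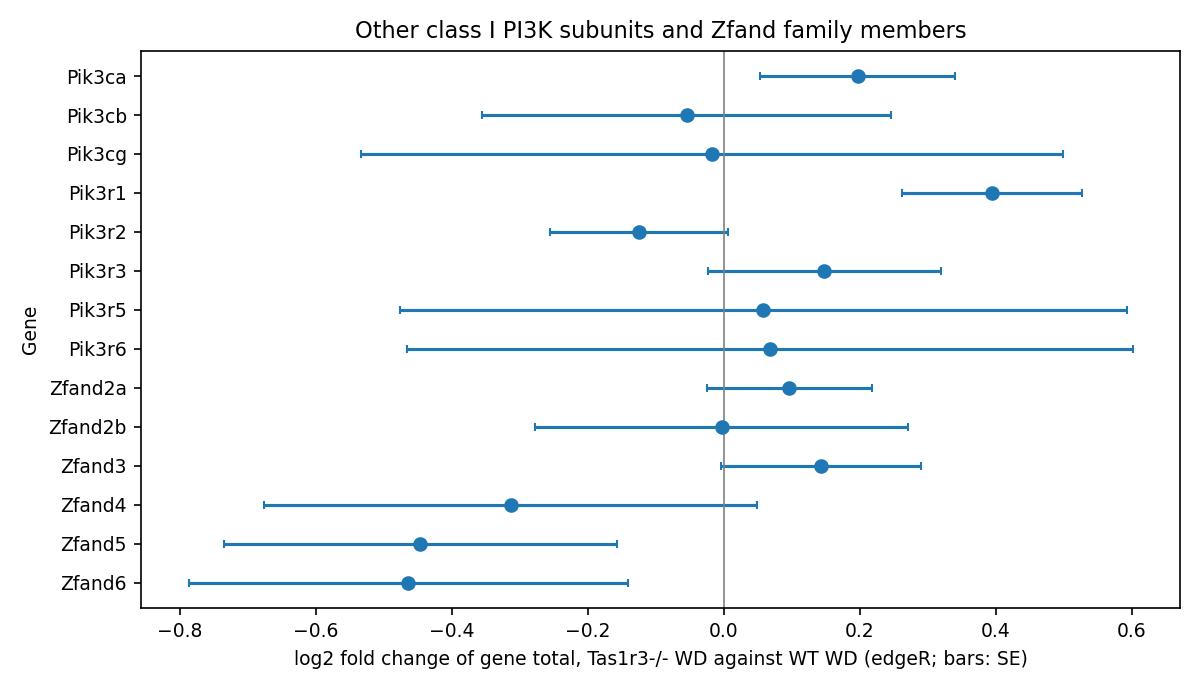
Log2 fold change of the gene total (x axis, Tas1r3-/- WD against WT WD, edgeR) for 8 other class I PI3K subunits and 6 other Zfand family members (y axis), with bars for the SE. All values lie between -0.46 (Zfand6) and 0.39 (Pik3r1), and none was called.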

How the data were processed

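The hypothalamus of WD-fed male mice was sequenced on an Ion Torrent platform from rRNA-depleted mRNA. Per the labels and the submitters' processing notes, the authors aligned reads with STAR to mm39 in Partek and deposited an estimated count (expected count) for each RefSeq transcript and library, not normalized. Versions of the aligner and counter are not given in the sources used here. The table lists 30930 transcripts, whose 4 values sum to 10 or more, and 13.0% of values are exactly whole (16.6% within 0.01 of a whole number). A gene name was matched for 30891 transcripts (16339 genes). The 39 unnamed transcripts held 0.347% to 2.49% of each library and entered neither library sizes nor tests. Depth per library was 5728729 to 6180137 named estimated counts, so a count of 0 allows up to 3 counts, or 0.485 to 0.524 CPM. Intervals and floors cover counting error only. No molecular identifiers were used.

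The design assumed counts. Estimated counts were rounded for edgeR 4.0.16 (quasi-likelihood test, TMM, filterByExpr, Benjamini-Hochberg, calls need 1.5-fold and an adjusted p under 0.05) in R 4.3.3. DESeq2 1.42.0 and limma 3.58.1 were alternatives, and the models were tested on simulated data. Shares used unrounded estimated counts. Coordinates and annotation are from GENCODE M39 on GRCm39, matched by symbol, and figures were drawn with matplotlib 3.10.9. Named genes were all member transcripts, subunits and family members, 2 listed neighbours on each side, Tas1r3, the 3 most alike transcripts, the most abundant gene of each marker list, the extremes of each list at 10 CPM or more, and features behind counts of 5 or fewer. The members and lists were chosen with earlier results of these data known.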

Additional observations from a re-analysis of the deposited data

How the results depend on the processing

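With 2 libraries per group, p-values set the group difference against a spread estimated from these few libraries, with information shared over features. No transcript count near the floor can be placed more closely than its interval. The share differences of NM_001164052 and NM_001331015 kept their direction under rounding, a pooled share and a denominator of transcripts that pass the filter. Both transcripts were chosen for this contrast, and such changes could hardly turn differences of this size, so nothing is read from this. With each library left out, the share differences ranged from -68.4 to -34.6 and from -66.9 to -55.1 points. The log2 fold change of NM_001331015 was -3.70 by limma-trend. That of the Pik3cd total lay between -0.91 and 0.47 when single libraries were dropped, and that of the Zfand1 total between -0.44 and -0.0432; the first was called without WT WD replicate 1 and its sign turned without WT WD replicate 2, and the second was -0.0432 there. The cause was not tested.

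Counts of calls moved more. For transcripts, DESeq2 called 6 and an unadjusted p under 0.05 with the 1.5-fold threshold 1079, against 0 by edgeR, and leaving out 1 library gave 0 to 104, the highest without WT WD replicate 1. For genes, DESeq2 called 8 and the unadjusted p 352, against 0, and leaving out 1 library gave 0 to 2123, the highest without WT WD replicate 1, and 32 when WT WD replicate 2 was dropped. For usage, the unadjusted p gave 172 and leaving out 1 library 0 to 1 (Celf4, without WT WD replicate 1). Where a library was left out, the lone sample of its group was assumed to vary like the other group. Without WT WD replicate 1 that lone sample was WT WD replicate 2, which held nearly none of the hypothalamic marker transcripts. The number of genes with a share difference without overlap was 1737 at 10 points and 119 at 40 points. Leaving out each library, an alternative chosen after seeing the data, gave 1304 to 1457 genes (21.5% to 24.1%), since fewer libraries can overlap, and these included 1331 without WT WD replicate 2.

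The labels give both groups the replicate numbers 1 and 2, and do not say whether the numbers pair the libraries. The differences between replicates 1 and 2 correlated between the groups at 0.0431 over transcripts and 0.0821 over genes. This cannot decide on a pairing, since the libraries also differ in their tissue markers. A replicate block left the calls at 0 for transcripts, genes and usage, and gave log2 fold changes of -3.44 for NM_001164052, -4.20 for NM_001331015, -0.24 for the Pik3cd total and -0.25 for the Zfand1 total. Shares per kb were not run, since transcript lengths were not used here. With at least 10 counts in every library, NM_001164052 and NM_001331015 gave no value.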

Other observations

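The sum of the 6 pituitary genes was 14.6 and 1.67 CPM in the WT libraries and 1429 and 4.37 CPM in the knockout libraries, with Gh at 760.1 CPM in Tas1r3-/- WD replicate 1 and at 0 in WT WD replicate 2. Prkcd, a kinase of thalamic relay neurons, was at 584 CPM in WT WD replicate 2 and at 10.6, 15.7 and 41.5 CPM in the other libraries. Both sets of values were given because the tissue signature of these libraries differs from their shared label, and their part in any difference between the groups was not tested.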
